A study of Homo sapiens with 38 samples.

Results

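The genes examined were 10 regulators and effectors of the integrated stress response, of 49070 genes listed in every count file. They were ATF4, ATF3, DDIT3, CEBPB, CEBPG, TRIB3, CHAC1, NUPR1, SESN2 and INHBE. They had been picked by name after their rise with GSK-J4 and their fall with palbociclib had been seen in these libraries. Those changes are therefore given as a description, without p-values. Where members are called higher or lower in them (edgeR, adjusted p under 0.05), nothing is read from the calls. Total RNA had been sequenced from 5 human neuroblastoma lines. BE2C cells, a line with MYCN amplification, received GSK-J4, an inhibitor of the histone H3K27 demethylases KDM6A and KDM6B, at 2.5 µM for 0, 24 or 48 h (2 libraries per time). The 24 and 48 h libraries had no vehicle control of their own time. Other BE2C cells were transfected for 72 h with a control siRNA (siCtrl, 2 libraries) or with siKDM6B N1, N2 or N33 (1 library each). CHLA15 and CHLA20 cells received the CDK4/6 inhibitor palbociclib at 300 nM for 72 h. NB1643 and NB1691 cells received it at 3 µM for 72 h. Each line had 2 treated libraries and 2 untreated libraries. Dose and line were therefore confounded between the CHLA and the NB lines and cannot be told apart.

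The integrated stress response is a shared answer to amino acid shortage, protein misfolding, haem deficiency and viral RNA. Kinases that sense these stresses phosphorylate the initiation factor eIF2, which lowers protein synthesis in general while the mRNA of the transcription factor ATF4 is translated more. ATF4 pairs with C/EBP-type partners on a composite DNA element and switches on genes of amino acid supply, redox balance and, under lasting stress, cell death. ATF4 is controlled mainly through translation, so its mRNA is only part of its activity, and no protein or phosphorylation was measured here.

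Depth, as counts on genes per library, ran from 36186567 to 63433818 for GSK-J4, from 41227956 to 50776662 for siRNA and from 45457371 to 93011010 for palbociclib. Levels below are CPM (counts scaled to a common library size) after TMM, which corrects the library totals for their composition. All 7 markers of adrenergic neuroblastoma used here (PHOX2A, HAND2, GATA3, ISL1, TH, DBH and CHGA) were at 1 CPM or more in every library but the untreated NB1691 libraries, in which 6 were. NB1691 stood apart, since its markers summed to 389 to 603 CPM, against 1924 to 2860 CPM in the other palbociclib lines. The fibroblast collagen COL1A1 reached 19850 CPM in the libraries labelled NB1691. Their MYCN level was 86.1 to 106 CPM, against 2166 to 3257 CPM in NB1643 and 1.93 to 3.39 CPM in the CHLA lines. Whether these libraries come from the line on their label was not tested, and every NB1691 value below rests on that label. The leukocyte gene PTPRC stayed at or under 0.544 CPM in all 3 experiments. Against siCtrl (6.47 and 8.76 CPM), KDM6B RNA was not lower in the libraries labelled siKDM6B, whose values were 8.99 (N1), 7.11 (N2) and 8.26 CPM (N33). N33 stood apart among them, with MYCN at 466 CPM against 1596 and 1613 CPM in siCtrl.

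The letters near the start sites were not read when the members were chosen. The members were, however, named as genes of a pathway in which ATF4 acts through a composite C/EBP-ATF element. The shares below are therefore a description and not independent evidence. Within 500 bases of the start site of each gene's MANE Select transcript on GRCh37, 8 of the 10 members held the C/EBP-ATF element TGATGNAA (N being any base), searched on both strands. The same letters were found around 7.42% of 18922 MANE Select start sites. With C as the free base (TGATGCAA), they were found in 7 of the 10 members and around 1.54% of all start sites. ATF4 and CEBPB held neither form in this window. The matches are shown because 8 of the 10 windows hold this element, the only one searched for. The element is in capitals, read on the strand that holds it, with 11 bases on each side.
ATF3, 203 bases upstream (chr1:212781889-212781918, minus strand): gggggcactggTGATGCAAgttcggggagg
ATF3, 21 bases upstream (chr1:212782071-212782100, plus strand): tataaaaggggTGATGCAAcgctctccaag
DDIT3, 306 bases upstream (chr12:57914585-57914614, plus strand): gggggcggggaTGATGCAAtgtttggcaac
CEBPG, 362 bases downstream in an intron (chr19:33864966-33864995, plus strand): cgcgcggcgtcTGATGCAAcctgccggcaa
TRIB3, 132 bases downstream in the 5′ UTR (chr20:361525-361554, minus strand): cccggtccgggTGATGCAAaccggagctaa
CHAC1, 209 bases upstream (chr15:41245449-41245478, minus strand): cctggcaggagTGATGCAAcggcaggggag
NUPR1, 91 bases upstream (chr16:28550368-28550397, plus strand): caggccctgtcTGATGCAAtctggcccctt
SESN2, 296 bases upstream (chr1:28585722-28585751, minus strand): ttagggttgcgTGATGAAAagggacttcac
INHBE, 230 bases upstream (chr12:57848849-57848878, minus strand): gtggacacgcaTGATGCAAgaaagaggatg

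In TRIB3 the same 30 bases occurred 3 times, 33 bases apart, all in the 5′ UTR exon. In the plot of element positions, 7 of the 11 matches lay upstream of the start site. Among 33 other genes known as ATF4 targets, 28 had a start site under the name used in the files or a single current name for it. Of these, 11 (39.3%) held the element. Of 14 targets of the ATF6 and XBP1 branches, 1 held it (7.14%). A match describes letters only, and binding was not measured.

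**Figure D1:**
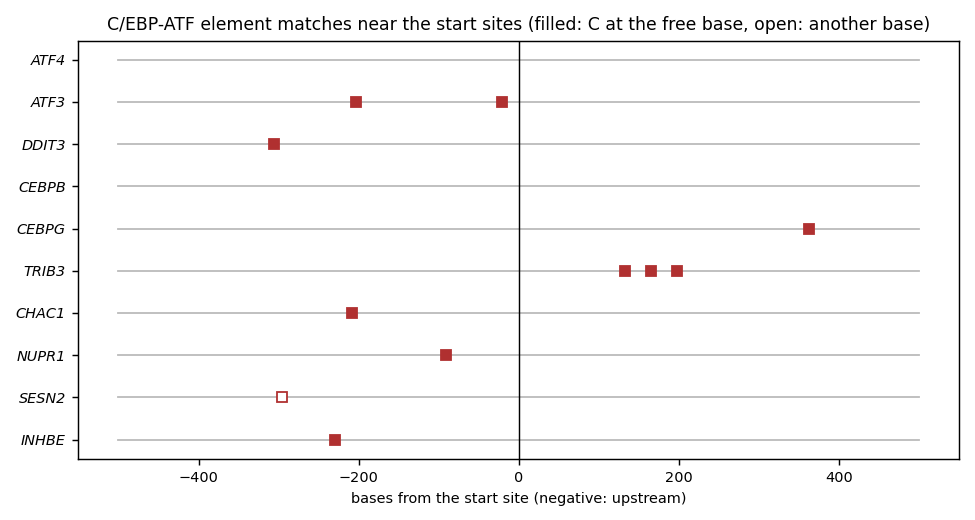
Each line is the 1001-base window around the start site of 1 member, with distance in bases on the horizontal axis and squares at element matches (filled with C at the free base, open with another base). TRIB3 carries 3 evenly spaced matches downstream, CEBPG 1, and the other 7 matches lie upstream; ATF4 and CEBPB have none.

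In BE2C, all 10 members were higher at 24 and at 48 h of GSK-J4 than at 0 h, and both libraries of each later time lay above both 0 h libraries for every member. Across the 17734 genes tested, 27.3% were called higher at 24 h and 37.1% at 48 h (edgeR, adjusted p under 0.05). All 10 members were also called higher at both times. The share of all genes without overlap between the groups was not computed. Since these contrasts were part of the choice of members, nothing is read from the counts. The median log2 fold change of the members was 2.48 at 24 h and 1.98 at 48 h, against 0.014 and 0.055 for all genes tested. In bulk RNA, more cells that express a gene and more RNA per cell cannot be told apart. The adrenergic markers summed to 3249 to 3305 CPM at 0 h, 3423 to 3428 CPM at 24 h and 2786 to 2787 CPM at 48 h, and their part in the result was not tested.

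Among the transcription factors, ATF4 (chr22:39915700-39918688), the central activator, was at 520 and 544 CPM at 0 h, 756 and 762 CPM at 24 h, and 811 and 841 CPM at 48 h. Its groups did not overlap, and it was the member with the smallest change, a log2 fold change of 0.51 (SE 0.028) at 24 h and 0.63 (SE 0.028) at 48 h. ATF3 (chr1:212738676-212794119), a stress-induced factor that can repress ATF4 targets, went from 11.7 and 12.1 CPM to 44.8 CPM in both 24 h libraries, and stood at 39.1 and 42.3 CPM at 48 h. Its log2 fold change was 1.91 (SE 0.060) at 24 h. DDIT3 (chr12:57910371-57915520), the pro-death factor CHOP, was at 14.5 and 15.8 CPM at 0 h, 71.2 and 70.2 CPM at 24 h, and 47.3 and 49.2 CPM at 48 h. The 24 h libraries were the highest and the 48 h libraries intermediate, with log2 fold changes of 2.22 (SE 0.052) and 1.67 (SE 0.054) against 0 h.

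The C/EBP partners changed less than ATF3 and DDIT3. CEBPB (chr20:48807367-48809205) was at 9.88 and 8.47 CPM at 0 h, 23.6 and 23.3 CPM at 24 h, and 21.5 and 20.3 CPM at 48 h, a log2 fold change of 1.35 (SE 0.073) at 24 h. CEBPG (chr19:33864591-33873592), a dimer partner of ATF4 at amino acid genes, was at 81.8 and 81.7 CPM at 0 h, 161 and 158 CPM at 24 h, and 136 CPM in both 48 h libraries. Its log2 fold change was 0.96 (SE 0.033) at 24 h and 0.74 (SE 0.033) at 48 h. For both genes the 3 times stood apart without overlap.

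The effectors showed the wider changes. TRIB3 (chr20:343479-378203), a pseudokinase that restrains ATF4, was at 7.04 and 7.06 CPM at 0 h, 95.4 and 93.0 CPM at 24 h, and 46.4 and 48.3 CPM at 48 h. Its log2 fold change was 3.74 (SE 0.057) at 24 h and 2.75 (SE 0.061) at 48 h. CHAC1 (chr15:41245160-41248710), an enzyme that degrades glutathione, went from 5.66 and 5.54 CPM to 65.8 and 67.3 CPM at 24 h and 49.6 and 51.7 CPM at 48 h. That was a log2 fold change of 3.57 (SE 0.063) and then 3.17 (SE 0.065). SESN2 (chr1:28586029-28609002), a leucine sensor that lowers mTORC1 activity, was at 15.2 and 15.3 CPM at 0 h, 99.1 and 104 CPM at 24 h, and 69.6 and 70.6 CPM at 48 h. Its log2 fold change was 2.74 (SE 0.048) and then 2.20 (SE 0.050).

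NUPR1 and INHBE were almost silent without GSK-J4, and passed the filter on low counts only through the treated groups. NUPR1 (chr16:28544029-28550329), a small stress-induced chromatin protein, had 0 counts in both 0 h libraries, 127 and 78 counts at 24 h, and 173 and 134 counts at 48 h. Against a floor of 3 counts over the 0 h group it was at least 51.9-fold higher at 24 h and at least 64.3-fold higher at 48 h. INHBE (chr12:57846106-57853063), the activin E subunit, had 1 and 3 counts at 0 h, 1375 and 1376 at 24 h, and 1249 and 933 at 48 h. The ratio of its levels was 523 at 24 h (95% counting interval 204 to 1919) and 343 at 48 h (134 to 1259.5). With NUPR1 at its bounds the median of the 10 members was still 2.48 and 1.98. These intervals and floors cover counting error only.

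Between 24 and 48 h, 8 of the 10 members were lower at 48 h in both libraries. TRIB3 fell by 0.99 on the log2 scale (SE 0.039), INHBE by 0.61 (SE 0.056), DDIT3 by 0.55 (SE 0.041) and SESN2 by 0.54 (SE 0.036). The others were CHAC1, CEBPG, CEBPB and ATF3, between -0.40 and -0.14. ATF4 alone was higher in both 48 h libraries, with a log2 difference of 0.12 (SE 0.028), and NUPR1 overlapped between the times. Of all genes tested, 28% were called lower and 25.9% higher at 48 h than at 24 h. Of the members, 8 were called lower and 1 higher. The share of all genes without overlap between these times was not computed, and nothing is read from the counts. The share of read pairs assigned to no gene moved with time. It was 11.5% and 11.3% at 0 h, 11.8% and 11.5% at 24 h, and 14.2% and 13.9% at 48 h, and its part in these differences was not tested.

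**Figure D2:**
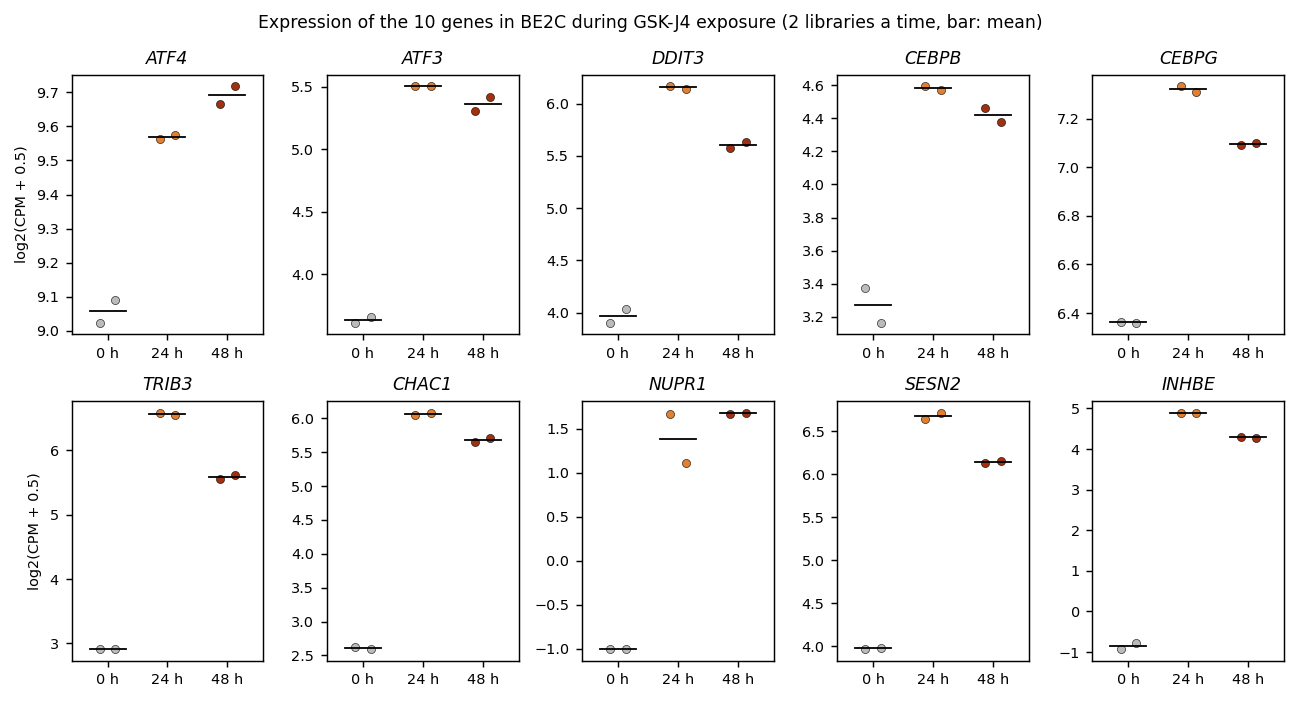
Each panel gives the log2(CPM + 0.5) of 1 member in the 2 libraries at 0, 24 and 48 h of GSK-J4 in BE2C, with a bar at the mean. For every member both 24 h and both 48 h points lie above the 0 h points, and most members are highest at 24 h, TRIB3 with 95.4 and 93.0 CPM then and 46.4 and 48.3 CPM at 48 h.

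With palbociclib at 300 nM, all 10 members were lower than in the untreated libraries in CHLA15 and in CHLA20, without overlap in either line. The background was 15.6% of 22133 tested genes called lower in CHLA15 and 15.9% in CHLA20. All 10 members were also called lower in both lines. The share of all genes without overlap between the groups was not computed. These contrasts, too, were part of the choice of members. The members' median log2 fold change was -1.42 in CHLA15 and -1.95 in CHLA20, against -0.0021 and 0.00 for all genes tested. The stromal and immune markers, of which 2 or 3 of 6 reached 1 CPM, summed to 142 to 149 CPM in untreated and 66.2 to 70.5 CPM in treated CHLA15. In CHLA20 they summed to 129 to 142 and 76.2 to 76.7 CPM. PTPRC and CD68, which mark leukocytes and macrophages, stayed at or under 0.544 and 0.320 CPM, and the part of these markers in the result was not tested.

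In CHLA15, ATF4 was at 463 and 483 CPM untreated and at 317 and 299 CPM treated, a log2 fold change of -0.62 (SE 0.053). In CHLA20 it was at 554 and 584 CPM untreated and at 297 and 299 CPM treated, a log2 fold change of -0.93 (SE 0.053). CHAC1 was at 29.2 and 19.5 CPM in untreated CHLA15 and at 3.21 and 2.67 CPM treated. In CHLA20 it was at 44.4 and 43.4 CPM untreated and at 3.93 and 3.66 CPM treated. CHAC1 had the largest fold change among the 8 members with more than 5 counts in every group, -3.06 (SE 0.15) in CHLA15 and -3.53 (SE 0.15) in CHLA20.

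ATF3 was at 11.6 and 7.79 CPM in untreated CHLA15 and 3.32 and 3.06 CPM treated, and at 15.6 and 16.6 CPM against 3.53 and 3.48 CPM in CHLA20. CEBPB was at 6.71 and 4.94 CPM against 1.85 and 1.43 CPM in CHLA15, and at 7.89 and 7.66 CPM against 1.86 and 2.07 CPM in CHLA20. The log2 fold changes were -1.62 (SE 0.14) and -2.20 (SE 0.14) for ATF3, and -1.85 (SE 0.22) and -1.98 (SE 0.20) for CEBPB. SESN2 was at 24.2 and 18.8 CPM against 9.28 and 9.26 CPM in CHLA15, and at 34.8 and 33.4 CPM against 9.30 and 8.72 CPM in CHLA20. Its log2 fold change was -1.22 (SE 0.10) and -1.92 (SE 0.10).

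TRIB3, DDIT3 and CEBPG had smaller fold changes than ATF3, CEBPB and SESN2 in both lines. TRIB3 was at 26.6 and 23.6 CPM against 14.7 and 13.5 CPM in CHLA15, and at 33.5 and 30.5 CPM against 15.1 and 15.6 CPM in CHLA20. Its log2 fold changes were -0.83 (SE 0.078) and -1.06 (SE 0.077), while those of DDIT3 were -0.77 (SE 0.12) and -0.53 (SE 0.12). CEBPG had the smallest change in CHLA15, -0.33 (SE 0.059), and stood at -0.61 (SE 0.059) in CHLA20.

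NUPR1 and INHBE fell to a few counts. NUPR1 had 57 and 65 counts in untreated and 2 and 1 counts in treated CHLA15, a level 37.9-fold lower (95% counting interval 12.7 to 186). In CHLA20 it had 36 and 34 counts untreated and 0 in both treated libraries, at least 25.2-fold lower against the floor of 3 counts over the group. INHBE had 167 and 135 counts in untreated and 1 and 0 counts in treated CHLA15, a level 281-fold lower (50.1 to 11148). In CHLA20 it had 266 and 159 counts untreated and 1 and 5 treated, 76.4-fold lower (34.8 to 209). With NUPR1 at its bound the median of the 10 members in CHLA20 was still -1.95.

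With palbociclib at 3 µM the members went another way. In NB1643, 2 members were called higher (DDIT3 and INHBE), 3 lower (ATF4, ATF3 and CEBPG) and 5 neither. The background was 20.3% of genes higher and 19.7% lower. This contrast was part of the choice of members, so nothing is read from the number of calls. The median over the members was 0.14, against 0.00 for all genes tested. ATF4 was at 701 and 756 CPM untreated and at 615 and 599 CPM treated, a log2 fold change of -0.26 (SE 0.052). DDIT3 was at 8.69 and 10.1 CPM untreated and at 12.9 and 12.3 CPM treated, a log2 fold change of 0.43 (SE 0.12). CHAC1 was at 3.98 and 3.8 CPM untreated and at 5.20 and 4.30 CPM treated, 0.30 (SE 0.17). NUPR1 had 2 and 3 counts untreated and 5 and 3 treated, a ratio of 1.76 whose 95% counting interval (0.508 to 6.84) includes both directions. Without palbociclib replicate 1 the calls in NB1643 came to 3 in place of 5, which left ATF4, ATF3 and CEBPG lower and none higher.

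In NB1691, 8 members were called higher and none lower, where 17.4% of all genes were called higher and 15.5% lower. This contrast, too, entered the choice of members, and nothing is read from the number of calls. The members' median was 0.40, against 0.019 for all genes tested. NUPR1 had the largest change, from 8.66 CPM in both untreated libraries to 23.9 and 25.0 CPM treated, a log2 fold change of 1.5 (SE 0.11). CHAC1 was at 7.44 and 7.54 CPM untreated and at 13.4 and 12.9 CPM treated, 0.82 (SE 0.14). TRIB3 was at 35.2 and 34.4 CPM untreated and at 55 and 50 CPM treated, 0.59 (SE 0.072). DDIT3, INHBE, ATF3, SESN2 and CEBPG lay between 0.18 and 0.42. ATF4 and CEBPB were not called, with ATF4 at 478 and 501 CPM untreated and at 496 and 482 CPM treated. The calls in NB1691 rested on few libraries: without palbociclib replicate 1 or without control replicate 1 they came to 4, and without control replicate 2 to 5. The stromal and immune markers, of which 4 of 6 reached 1 CPM in NB1691, summed to 14602 to 14882 CPM untreated and 19047 to 19904 CPM treated. In NB1643 they summed to 5.31 to 5.58 and 6.21 to 6.37 CPM. Their part in these results was not tested.

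**Figure D3:**
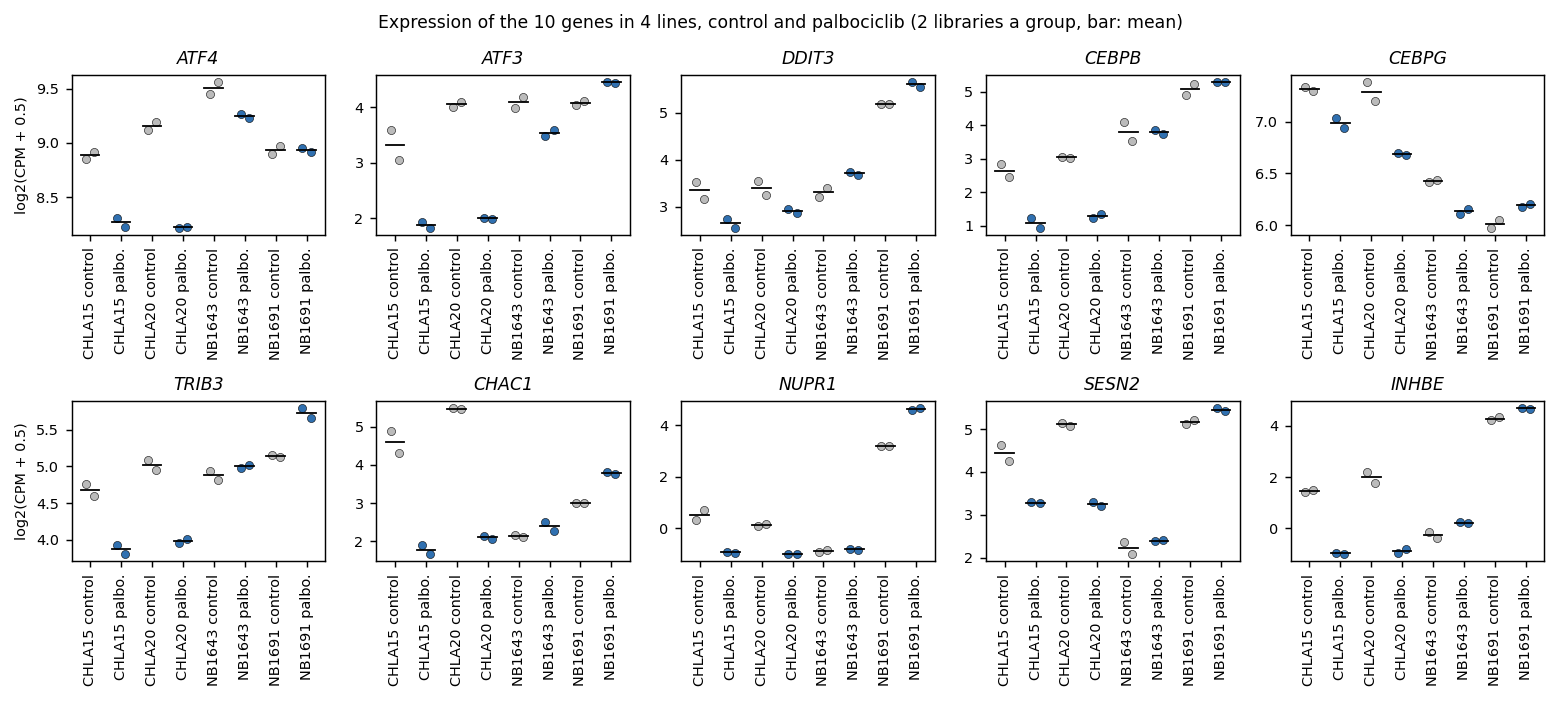
Each panel gives the log2(CPM + 0.5) of 1 member in the 2 untreated (grey) and 2 palbociclib (blue, labelled palbo.) libraries of each line, with a bar at the mean; CHLA15 and CHLA20 received 300 nM, NB1643 and NB1691 3 µM. In the CHLA lines both treated points lie below both untreated points in all 10 panels, while NUPR1 in NB1691 goes from 8.66 CPM to 23.9 and 25.0 CPM.

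Set gene by gene, the sizes with GSK-J4 at 24 h and with palbociclib in the CHLA lines ran in parallel for some members and not for others. INHBE and NUPR1, at few counts in the low groups, had the largest changes in both settings. CEBPG was among the smaller ones in both, at 0.96 against -0.33 and -0.61. ATF3 stood at 1.91 against -1.62 and -2.20, and SESN2 at 2.74 against -1.22 and -1.92. TRIB3 had a log2 fold change of 3.74 with GSK-J4 at 24 h, but only -0.83 and -1.06 in CHLA15 and CHLA20. DDIT3 stood at 2.22 against -0.77 and -0.53. CHAC1 was of like size in both settings, 3.57 against -3.06 and -3.53. CEBPB was the other way round, 1.35 against -1.85 and -1.98. ATF4 stood at 0.51 against -0.62 and -0.93, so its own RNA changed less than that of most effectors in each setting. The cells, doses and times differ between the experiments, and no test was made between them.

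**Figure D4:**
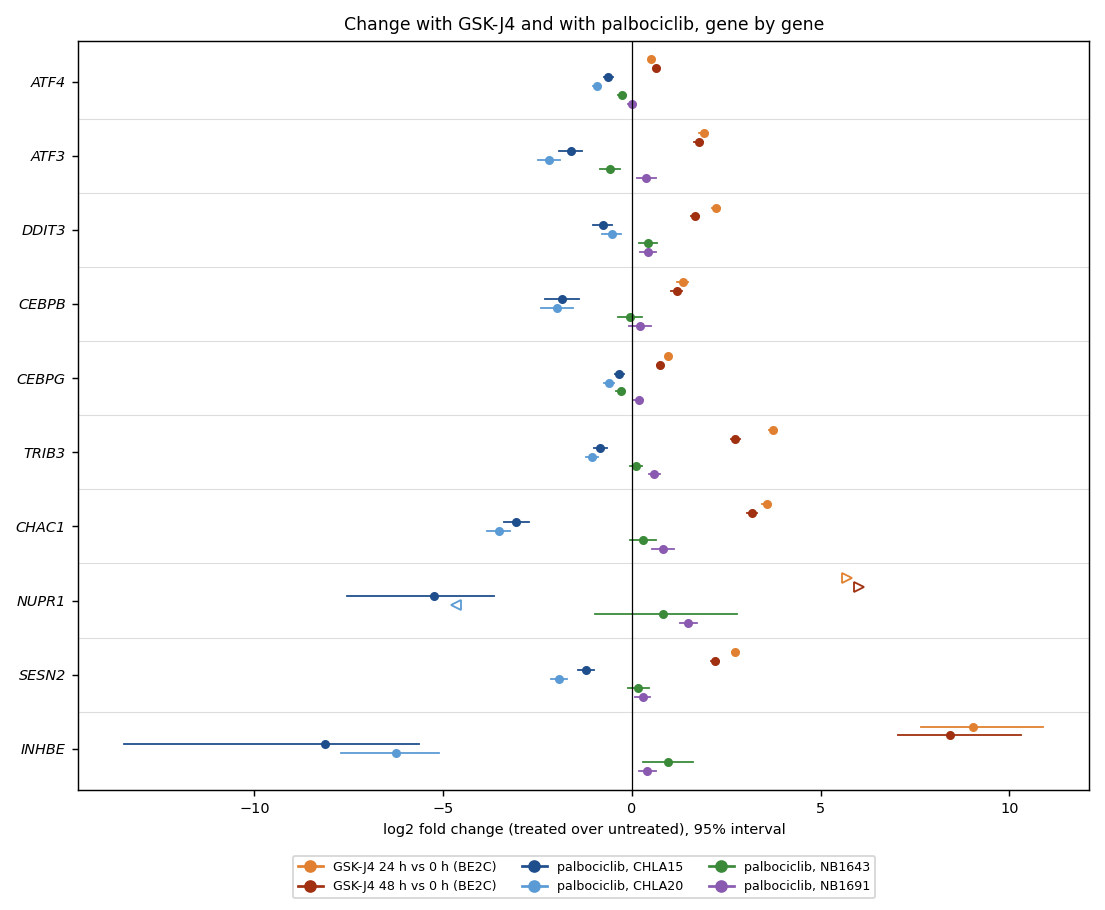
The log2 fold change of each member (treated over untreated) with its 95% interval is given for GSK-J4 at 24 and 48 h in BE2C and for palbociclib in 4 lines; NUPR1 and INHBE are drawn from summed counts where a group had at most 5 counts per library, and open triangles are bounds against a group at 0. GSK-J4 values lie to the right of 0 for every member, CHLA15 and CHLA20 values to the left, and the NB lines near or to the right of 0 for most, TRIB3 for example at 3.74, -0.83, -1.06, 0.12 and 0.59 for GSK-J4 at 24 h and for CHLA15, CHLA20, NB1643 and NB1691.

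The levels of the members in untreated cells were compared between the 4 palbociclib lines with edgeR's quasi-likelihood test (Benjamini-Hochberg). The same untreated libraries are the controls of the palbociclib contrasts that entered the choice of members, and a high untreated level makes a larger fall. The calls are therefore not independent of that choice. They say which differences exceed the spread between libraries, and nothing is read from their number. CHLA20 differed from CHLA15 in 6 of the 10 members, all higher, where 12.4% of all genes were called. ATF4, ATF3, TRIB3, CHAC1, SESN2 and INHBE were these 6, with log2 differences from 0.27 to 0.84. The call of INHBE was lost without CHLA15 control replicate 1 (edgeR adjusted p = 0.109) or CHLA20 control replicate 1 (adjusted p = 0.139), and from the compared groups alone (adjusted p = 0.0654). That of TRIB3 was lost without CHLA15 control replicate 2 (edgeR adjusted p = 0.0842). CEBPB was also called with no filter (adjusted p = 0.00206, edgeR), and NUPR1 without CHLA15 control replicate 1 (adjusted p = 0.0215). NB1643 differed from CHLA15 in 9 members and from CHLA20 in 7, where 64.6% and 64.5% of genes were called. The call of TRIB3 against CHLA15 was lost without CHLA15 control replicate 2 (edgeR adjusted p = 0.147) or NB1643 control replicate 1 (adjusted p = 0.112). NB1691 differed from CHLA15 in 9, from CHLA20 in 7 and from NB1643 in 9, where 78%, 77.5% and 80.7% of genes were called.

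The order of the lines was not the same for all members. ATF4 was highest in NB1643, at 701 and 756 CPM, and lowest in CHLA15 and NB1691, which did not differ beyond their spread (adjusted p = 0.388, edgeR). NB1643 had the lowest levels of SESN2, CHAC1, NUPR1 and INHBE. SESN2 was at 4.64 and 3.76 CPM there, against 24.2 and 18.8 CPM in CHLA15, 34.8 and 33.4 CPM in CHLA20, and 34.5 and 36.7 CPM in NB1691. SESN2 was 2.34 lower on the log2 scale in NB1643 than in the next line, CHLA15 (SE 0.11, adjusted p = 1.01e-12, edgeR), while CHLA20 and NB1691 did not differ (adjusted p = 0.532). CHAC1 was highest in CHLA20, and each step from NB1643 over NB1691 and CHLA15 to CHLA20 passed the test. INHBE was at 0.40 and 0.27 CPM in NB1643 and at 18.1 and 19.8 CPM in NB1691, the means being 57.2-fold apart. NUPR1 was lowest in NB1643, with 2 and 3 counts, and highest in NB1691, and CHLA20 and CHLA15 between them did not differ (adjusted p = 0.0592).

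DDIT3 was at 35.9 and 36.0 CPM in NB1691, and between 8.49 and 11.2 CPM in the 6 untreated libraries of the other lines, whose differences did not pass the test. CEBPB was highest in NB1691, at 29.7 and 37.3 CPM, and next in NB1643, whereas CHLA15 and CHLA20 did not differ (adjusted p = 0.142, edgeR). CEBPG had the reverse order, at 62.5 and 65.7 CPM in NB1691, at 85.1 and 85.9 CPM in NB1643, and at 146 to 166 CPM in the CHLA lines. TRIB3, ATF4 and ATF3 varied least, with the highest line at 1.38, 1.54 and 1.71 times the lowest. Scaling by library totals in place of TMM moved the median of all genes by -0.40 to -0.41 in the comparisons with NB1691. On that scale ATF4 in NB1691 was below that in CHLA15 (log2 difference -0.36), and ATF3, TRIB3 and SESN2 in NB1691 were below those in CHLA20 (-0.38, -0.29 and -0.34). TRIB3, called higher in NB1691 than in NB1643 with TMM (log2 difference 0.26), was at -0.16 on that scale and did not pass the threshold (edgeR adjusted p = 0.0691). That call was also lost with upper-quartile scaling (0.07, adjusted p = 0.375, edgeR) and without NB1643 control replicate 2 (0.10, adjusted p = 0.269). With library totals ATF3 was called lower in NB1691 than in NB1643 (-0.43, edgeR adjusted p = 0.00204). DDIT3, NUPR1 and INHBE kept their direction.

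The contrast between siKDM6B and siCtrl was the only treatment the choice of members did not use. N1, N2 and N33 were taken as 1 group of 3 libraries, so the spread within it includes differences between the siRNAs. The contrast was tested for 9 members, as NUPR1 had at most 10 counts in a library. None passed the threshold (edgeR, adjusted p under 0.05), nor did any of the 17472 genes tested (0%, against 1615 at an unadjusted p under 0.05). DESeq2 called 164 genes and limma-voom 0. With this spread, the absence of calls does not show that the siRNAs had no effect. ATF3 came nearest. Its siCtrl values were 21.0 and 18.9 CPM, while N1 gave 9.04, N2 6.70 and N33 5.88 CPM, so that 3 of 3 libraries labelled siKDM6B were lower. The log2 difference was -1.47 (95% interval -2.17 to -0.78), with an edgeR adjusted p = 0.520. DESeq2 called it (adjusted p = 0.0032), as did the fit with each file as a sample and the joint fit with the GSK-J4 libraries. The fit by file counts the files of 1 library as separate samples. The joint fit takes part of its spread from the GSK-J4 libraries. Neither measures the spread between siRNA libraries alone, so neither of these calls adds support. Like ATF3, DDIT3 and CEBPB were below both siCtrl libraries in all 3 libraries labelled siKDM6B, where 16.8% of all genes were. None was above siCtrl in all 3, where 16.3% of genes were.

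The 3 siRNA libraries did not move alike. For CHAC1, siCtrl gave 7.07 and 6.71 CPM, N1 6.24 CPM and N2 4.46 CPM, whereas N33 reached 37.1 CPM, 5.38 times the siCtrl mean. For TRIB3, siCtrl gave 9.83 and 9.10 CPM, N1 14.1 CPM, N2 3.52 CPM and N33 19.8 CPM. For ATF4 the siCtrl values were 560 and 536 CPM, N1 having 478, N2 320 and N33 728 CPM. N33 was above siCtrl for these 3 genes and N2 below it. N33 also decided 2 directions, since without it the log2 difference of CHAC1 went from 1.21 to -0.36 and that of TRIB3 from 0.40 to -0.10. SESN2 was highest with N1, at 32.0 CPM, then N33 at 23.2 CPM, while N2 at 15.5 CPM lay between the siCtrl libraries (14.8 and 16.6 CPM). N33 was also the library in which MYCN was lowest, and its adrenergic markers summed to 719 CPM, against 2387 CPM in N1, 1952 CPM in N2, and 2118 and 2228 CPM in siCtrl. Read pairs assigned to no gene made up 18.9% in N1 and 18.1% in N2, against 14.2% in N33 and 14.1% and 14.3% in siCtrl. The part of these in the members' values was not tested. With 1 library per siRNA, the differences between N1, N2 and N33 have no replicate check.

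**Figure D5:**
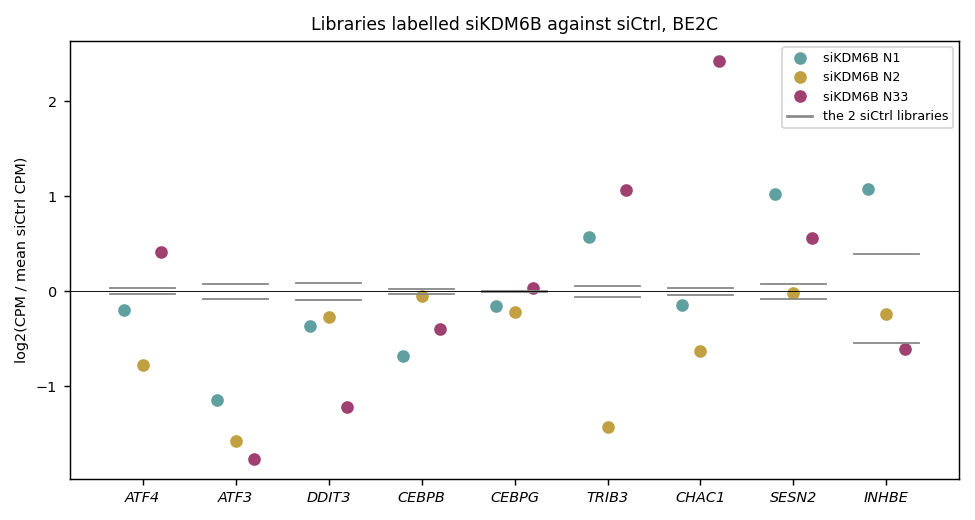
The log2 ratio of each library labelled siKDM6B to the siCtrl mean is given for the 9 members tested, with grey lines at the 2 siCtrl libraries. ATF3 lies below siCtrl in all 3 libraries, while CHAC1 lies at 37.1 CPM in N33 and below siCtrl in N1 and N2.

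The other genes of the pathway were counted in lists that had, like the members, been drawn up with results of these data known. Across all genes tested, 27.3% were called higher and 28% lower at 24 h of GSK-J4, and 37.1% and 34.4% at 48 h. With palbociclib the shares were 14.2% and 15.6% in CHLA15 and 13.7% and 15.9% in CHLA20. They were 20.3% and 19.7% in NB1643 and 17.4% and 15.5% in NB1691. Because of how the lists were drawn up, their counts below are a description. Nothing is read from them, whether they lie near these shares or far from them. With GSK-J4 at 24 h, 31 of the 33 other ATF4 targets were called higher and 1 lower, and their log2 fold changes had a median of 1.27. At 48 h 30 were higher and 2 lower, with a median of 0.86. FGF21, a stress hormone, had 0 counts at 0 h and was at least 26.6-fold higher at 24 h. GDF15, another secreted stress factor, had 2 counts over the 0 h group and 583 over the 24 h group, a ratio of 222 (61.0 to 1833). Like NUPR1 and INHBE, FGF21 and GDF15 passed the filter on low counts only through the treated groups. Both are among the targets counted as higher. SLC7A11, the cystine transporter, was 11.6-fold and DDIT4, an mTORC1 inhibitor, 8.70-fold higher at 24 h. With palbociclib, 28 of the 33 were lower and 1 higher in CHLA15 (median -0.78), and 28 were lower and 2 higher in CHLA20 (median -1.22). SLC7A11 had log2 fold changes of -3.49 and -4.26 in these lines, and ASNS, asparagine synthetase, -1.87 and -2.10. FGF21 went from 193 counts to 0 in CHLA20, at least 69.4-fold lower. In NB1643, 6 were higher and 15 lower (median -0.035), with SHMT2 and SLC1A5 lower by 0.92 and 0.85 and DDIT4 higher by 0.90. In NB1691, 14 were higher and 5 lower (median 0.15), with STC2 higher by 1.21 and VLDLR by 1.04 on the log2 scale.

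Of the 4 eIF2 kinases, 2 were higher at both times of GSK-J4. With GSK-J4 at 24 h, EIF2AK4 (GCN2, the amino acid sensor) was higher by 0.15 and EIF2AK2 (PKR) by 0.10, while EIF2AK1 (HRI) and EIF2AK3 (PERK) were not called. At 48 h EIF2AK4 was higher by 0.36 and EIF2AK2 by 0.26, both also higher than at 24 h, and EIF2AK1 was lower by 0.08. EIF2AK3 was the kinase called with palbociclib, higher by 0.33 in CHLA15 and 0.32 in CHLA20, and none was called in NB1643 or NB1691. Of the phosphatase subunits that undo eIF2 phosphorylation, PPP1R15A (GADD34), itself an ATF4 target, was 3.47-fold higher at 24 h, 2.89-fold at 48 h, 1.40-fold in NB1643 with palbociclib and 1.48-fold in NB1691. In CHLA15 it was not called (log2 fold change -0.022), nor in CHLA20 (0.16, adjusted p = 0.0514, edgeR). PPP1R15B, the constitutive subunit, was 1.20-fold and 1.47-fold higher at 24 and 48 h and was called lower in CHLA20 and NB1643 with palbociclib. Of the 8 eIF2 and eIF2B subunits, 6 were lower and 2 higher at both times of GSK-J4, and EIF2B3 fell by 1.18 at 48 h. With palbociclib 2 were lower in CHLA15, 3 in CHLA20, 4 in NB1643 and 6 in NB1691, where 2 were higher.

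The ATF6 and XBP1 branches, which answer to misfolded protein in the endoplasmic reticulum, moved both ways with GSK-J4. At 24 h 7 of 14 targets were higher and 7 lower (median -0.079), EDEM1 and HERPUD1 being higher by 1.30 and 1.21 and SDF2L1 lower by 0.98. At 48 h 6 were higher and 8 lower. With palbociclib 3 were higher and 1 lower in CHLA15, 6 and 3 in CHLA20, 4 and 2 in NB1643, and 1 and 9 in NB1691. In NB1691 HSPA5 (BiP), the main chaperone of the compartment, fell by 0.95 (SE 0.058, adjusted p = 3.17e-10, edgeR), whereas in CHLA15 and CHLA20 it was higher by 0.20 and 0.35. Of the 6 mitochondrial genes, the protease LONP1 was higher by 0.75 at 24 h, and OMA1, which starts the mitochondrial route to EIF2AK1, was lower by 0.30. In all, 3 were higher and 3 lower at 24 h, 1 and 3 at 48 h, none higher and 3 lower in CHLA15, CHLA20 and NB1643, and 2 and 1 in NB1691.

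Most other bZIP factors tested were called higher with GSK-J4, but their typical rise was smaller than that of the members. On the log2 scale their median was 0.61 after 24 h, where that of the members was 2.48. After 48 h these values were 0.57 and 1.98. With palbociclib some factors were called higher and others lower in each line, and nothing is read from those calls. Of the members' paralogs, only SESN3 was called higher with GSK-J4, where 27.3% of all genes were at 24 h and 37.1% at 48 h. None was called lower in CHLA15 or CHLA20, where 15.6% and 15.9% of all genes were. With so few paralogs tested, nothing is read from these counts. ATF5, which like ATF4 is translated under stress, was 15.8-fold higher at 24 h and 8.32-fold at 48 h of GSK-J4. FOS was 6.19-fold and 17.5-fold higher. In all, 8 of 10 bZIP factors tested were higher and 1 lower at 24 h, and 10 were higher at 48 h. With palbociclib 2 of 11 were higher and 3 lower in CHLA15, 3 and 3 in CHLA20, and 2 and 2 in NB1643 and in NB1691. JDP2 stood at -1.17 in CHLA15, -1.47 in CHLA20 and 0.57 in NB1691. Of 5 paralogs tested with GSK-J4, SESN3 was higher and CHAC2, TRIB1 and TRIB2 were lower at both times. CHAC2 stood at -0.93 and TRIB2 at -0.57 at 24 h, beside CHAC1 at 3.57 and TRIB3 at 3.74. In CHLA15 TRIB2 was higher by 0.94 with palbociclib, while TRIB3 was lower by 0.83. Of 8 paralogs tested there, 3 were higher in CHLA15, 4 in CHLA20, 3 in NB1643 with 1 lower, and 1 in NB1691 with 5 lower. The 4 ATF4 pseudogenes, near-identical copies that could share reads with it, summed to 0.145% to 0.548% of the ATF4 counts over the 27 libraries. Of the 2 tested, ATF4P3 was called higher at both times of GSK-J4 and ATF4P4 at 48 h, and neither was called with palbociclib. With siKDM6B, 0 genes of any list were called (edgeR); the medians ran from -0.23 for the mitochondrial genes to 0.13 for the other bZIP factors, the 33 ATF4 targets standing at -0.028 over 32 tested.

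Each member's profile over the 22 GSK-J4 and palbociclib libraries, taken as log2(CPM + 0.5) minus the mean of the untreated libraries of its line, was set beside the mean profile of the other 9. The Pearson r ran from 0.936 for ATF4 to 0.992 for SESN2. Of 13871 other genes with a mean of at least 1 CPM that were tested in both experiments, the most alike to the mean of all 10 members were ULBP1 (r = 0.993), ADM2 (0.989), ZNF804A (0.988), AJUBA (0.981) and ASNS (0.981). HDLBP, DNASE2, GPT2, PEX5L and EPRS came next, down to 0.978. ULBP1, a ligand of the NKG2D receptor of natural killer cells, had log2 fold changes of 4.30 with GSK-J4 at 24 h, -2.12 in CHLA15, -3.33 in CHLA20, -0.25 in NB1643 and 0.41 in NB1691. ZNF804A was as alike in shape but far smaller in size, at 0.64, -0.22 and -0.34 for GSK-J4 at 24 h, CHLA15 and CHLA20. The points fall into treatment groups and share libraries and their scaling, so r is a description only.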

How the data were processed

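Total RNA of human neuroblastoma lines had been sequenced with paired-end reads. The deposited files hold counts of read pairs per gene symbol, made by the authors with HTSeq after alignment to GRCh37; the submitters' processing notes name CASAVA, STAR 2.5.3a and HTSeq, and the study's methods give a mouse Gencode release for an annotation whose symbols are human. Counts are raw, with no normalization. The lines of each file that name no gene were left out. Read pairs assigned to no gene are those that overlapped none. They came to 5.70% to 18.9% of the pairs on genes, on no gene or ambiguous between genes. Pairs that aligned to several places are outside this base, which the results also use. The 38 files were taken as 27 libraries: the 22 BE2C files were summed in pairs to 11. The chi-square per degree of freedom was 1.48 to 1.65 within these 11 pairs and 1.89 to 4.33 over 16 pairs of files from different replicates. The siKDM6B files carry 1 running number only and were taken as runs of 1 library. The libraries of N1, N2 and N33 formed 1 group in the fit. The labels describe extraction from xenograft tissue, while the samples are labelled as cell lines.

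Each experiment was fitted by itself with edgeR 4.0.16 (R 4.3.3): TMM, filterByExpr, quasi-likelihood F tests, Benjamini-Hochberg over all tested genes (17734 for GSK-J4, 17472 for siRNA, 22133 for palbociclib), threshold 0.05. The script was tested on simulated data. The labels do not say that replicates were separate cultures, so p-values measure the spread between these libraries. Alternatives were DESeq2 1.42.0, limma-voom (limma 3.58.1, the study's tool), upper-quartile or library-total scaling, no filter, the compared groups alone, a replicate block, each file as a sample, both BE2C experiments in 1 fit, and leaving out each library. Intervals of ratios with few counts are exact and conditional on the sum (scipy 1.17.1).

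Named genes were the 10 members, up to 4 genes per list and contrast with the largest change past the threshold, all genes of lists of 4 or fewer, and the 10 genes most like the members. Members and lists were chosen with earlier results of these data known. A gene of the adrenergic marker list is not reported here, and the sums leave it out. Positions and sequences come from the GRCh37 assembly with GENCODE 44 lifted to it. Single library values are CPM and their precision rests on the depths given with the results; a count of 0 allows up to 0.0829 CPM.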

Additional observations from a re-analysis of the deposited data

Results flagged for a closer look

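For 9 of the 10 members both palbociclib libraries of at least 1 line lay above its untreated libraries while both of another line lay below theirs. The share of all genes that do so was not computed. The palbociclib contrasts also entered the choice of members, so nothing is read from this number. The difference between the lines was not tested, and the lines received different doses (300 nM in the CHLA lines, 3 µM in the NB lines). The largest gap between a line that was higher and a line that was lower, as a difference of log2 fold changes, was 2.59 for ATF3, 2.20 for CEBPB, 0.79 for CEBPG, 1.66 for TRIB3, 4.35 for CHAC1 and 2.20 for SESN2, each between NB1691 and CHLA20. It was 1.21 for DDIT3 between NB1643 and CHLA15. With CHLA15 taken from summed counts it was 6.74 for NUPR1 between NB1691 and CHLA15 and 9.10 for INHBE between NB1643 and CHLA15, the treated CHLA15 libraries holding 3 and 1 counts in all. CHLA20 was not ranked for NUPR1, since its treated libraries held 0 counts and give only a bound (at least 25.2-fold lower). ATF4 was not among these genes, since its NB1691 libraries overlapped.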

How the results depend on the processing

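All 10 members stayed higher at 24 and 48 h of GSK-J4, and lower with palbociclib in CHLA15 and CHLA20, under every alternative run. With siKDM6B, edgeR called 0 members. ATF3 alone was called by DESeq2, with each file as a sample and with both BE2C experiments in 1 fit. Over all genes these gave 164, 2354 and 690 calls, and no filter 84, against 0. The fit by file counts the files of 1 library as separate samples, and the joint fit shares the spread of the GSK-J4 libraries. Leaving out 1 library at a time gave 3 to 4 calls in NB1643 (main 5) and 4 to 6 in NB1691 (main 8). CHLA20 against CHLA15 untreated gave 2736 calls over all genes, 1285 from these groups alone and 1130 to 4012 without 1 library of these groups, 1130 and 1305 without CHLA15 control replicates 1 and 2 and 1370 without CHLA20 control replicate 2. Directions that turned over the single-library omissions are given as ranges of log2 differences. With siKDM6B they were -0.46 to 0.14 for ATF4, -0.10 to 0.84 for TRIB3, -0.36 to 1.65 for CHAC1 and -0.41 to 0.78 for INHBE, with -0.15 without siCtrl replicate 1. For CHLA20 against CHLA15 they were -0.13 to 0.25 for DDIT3 (-0.12 without CHLA15 control replicate 2) and -0.11 to 0.072 for CEBPG (0.0005 without CHLA15 control replicate 1). For DDIT3 they were -0.21 to 0.16 in NB1643 against CHLA15 (0.051 without NB1643 control replicate 1) and -0.23 to 0.081 in NB1643 against CHLA20 (0.008 without NB1643 control replicate 1). For ATF3 they were -0.028 to 0.16 in NB1643 against CHLA20, -0.089 to 0.060 in NB1691 against CHLA20 (-0.0092 without NB1691 control replicate 2) and -0.20 to 0.028 in NB1691 against NB1643 (0.0042 with no filter). In NB1691 against CHLA20, SESN2 ran from -0.031 to 0.11 and TRIB3 from -0.014 to 0.14, and ATF4 against CHLA15 from -0.045 to 0.088. With upper-quartile scaling, which moved the median of all genes by -0.11 to -0.18 in the NB1691 comparisons and by 0.11 at 48 h of GSK-J4, ATF4 against CHLA15 was -0.069, and ATF3 and SESN2 against CHLA20 were -0.090 and -0.051. With library totals the values were -0.36 for ATF4, -0.38, -0.29 and -0.34 for ATF3, TRIB3 and SESN2, and -0.16 for TRIB3 against NB1643. From the compared groups alone, ATF4 was -0.0023 and ATF3 -0.038. The causes were not tested. With the replicate number as a block, calls of members were 10 and 10 with GSK-J4, 10, 10, 6 and 8 with palbociclib in CHLA15, CHLA20, NB1643 and NB1691, and as without the block in the untreated comparisons; deviations of same-numbered libraries correlated at 0.0096 to 0.061 with GSK-J4 and at 0.006 to 0.131 within the palbociclib lines, so the libraries were taken to share a number only. No paired analysis was possible for siKDM6B because the groups share fewer than 2 numbers. Depth limits NUPR1 and INHBE, which held 0 to 5 counts in several groups.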
